A study of Mus musculus with 12 samples.

Results

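The globin genes of mouse and Alas2, the first enzyme of haem synthesis in red cells, were followed in RNA from sorted spinal cord cells. The 8 genes were chosen by symbol from the 30740 gene symbols of the count table: Hba-x, Hba-a1 and Hba-a2 of the alpha-like cluster, Hbb-y, Hbb-bh1, Hbb-bs and Hbb-bt of the beta-like cluster, and Alas2. All 8 were present. RNA was read from ventral spinal cord of E12.5 (mid-gestation) embryos of strain CB6F1/J that carried Hb9:GFP, a reporter transgene driven by the promoter of the motor neuron gene Mnx1. The tissue had been dissociated with papain and the cells sorted by flow cytometry. The 4 groups were GFP-positive cells of control embryos (5 libraries), GFP-positive cells of Arhgap35 knockout embryos (5 libraries), GFP-negative control cells (1 library) and GFP-negative knockout cells (1 library). Arhgap35 encodes p190, a GTPase-activating protein. The protocol does not make plain whether several embryos were pooled per library. Sample titles call every control library wild type, whereas the protocol allows controls to be wild-type or heterozygous littermates. Whether each replicate is a litter of its own is not said, and p-values therefore cover no more than the spread between these libraries, which may be technical.

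Haemoglobin is built from paired alpha-like and beta-like chains around haem. In mouse embryos the first red cells arise in the yolk sac and circulate as nucleated primitive erythroid cells, which make the embryonic chains encoded by Hba-x (zeta), Hbb-y (epsilon-y) and Hbb-bh1 (beta-h1). As these cells mature, Hbb-bh1 gives way to Hbb-y and Hba-x to Hba-a1 and Hba-a2, and definitive red cells from the fetal liver later add Hbb-bs and Hbb-bt, the adult beta chains of the C57BL/6 haplotype. In sorted neural cells these transcripts are commonly used as a readout of carried-over blood, although globin transcripts have also been described in some neurons.

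Total estimated counts ran from 23699399 to 33807320 per library. Arhgap35 had 135 to 202 CPM (counts scaled to a common library total) among control and 88.2 to 106 CPM among knockout GFP-positive libraries, without overlap. The sources used here do not say which part of the gene was deleted. Mnx1 ran from 229 to 315 CPM in the 10 GFP-positive libraries, against 0.509 CPM in GFP-negative control and 0.438 CPM in GFP-negative knockout cells. The labels call the GFP-negative samples motor neurons too, but this defining marker was nearly absent from them.

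Both globin clusters are shown through the most abundant gene of each, with Alas2 beside them, because most globins moved together across libraries. The sequences are the bases before the gene start, from RefSeq on GRCm38.p6, and 7 of the 8 genes (not Hbb-bh1) had an entry. Capitals mark 3 short motifs of red cell promoters on either strand: the GATA factor motif, the CACCC box bound by Klf-type factors, and the CCAAT box. The GATA motif was searched as AGATAA, as TGATAA with another first letter, as AGATAG with another last letter, and as TGATAG with both. No match overlapped another.

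Hba-a2 (chr11:32296242-32296488, plus strand): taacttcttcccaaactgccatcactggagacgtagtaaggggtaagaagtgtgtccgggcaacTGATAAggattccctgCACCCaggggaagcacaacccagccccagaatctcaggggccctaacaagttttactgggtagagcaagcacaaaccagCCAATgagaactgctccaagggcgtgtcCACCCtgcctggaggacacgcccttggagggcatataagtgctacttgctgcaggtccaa

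Hbb-y (chr7:103853217-103853457, minus strand): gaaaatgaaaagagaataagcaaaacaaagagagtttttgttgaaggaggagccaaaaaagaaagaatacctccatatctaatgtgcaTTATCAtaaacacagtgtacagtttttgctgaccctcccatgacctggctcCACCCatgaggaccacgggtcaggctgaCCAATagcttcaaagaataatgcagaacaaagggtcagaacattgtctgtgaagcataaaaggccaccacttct

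Alas2 (chrX:150547167-150547374, plus strand): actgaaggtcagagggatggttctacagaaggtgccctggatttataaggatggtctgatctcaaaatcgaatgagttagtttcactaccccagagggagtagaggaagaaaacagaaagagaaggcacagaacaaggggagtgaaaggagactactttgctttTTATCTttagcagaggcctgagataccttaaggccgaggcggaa

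In the full windows of 250 bases before the RefSeq start, all 3 motifs occurred in Hba-a1, Hba-a2, Hbb-bs and Hbb-y. Across 32817 RefSeq windows of that length the GATA forms occurred in 26.6%, CACCC in 52.0%, CCAAT in 33.8%, and all 3 together in 3.92%. Hba-x held 2 GATA forms and 2 CACCC boxes but no CCAAT, and Alas2 held 1 GATA form and 3 CACCC boxes, which stand end to end in 42 bases next to its start that are not printed because the annotation also places them in an untranslated exon. Hbb-bt held 3 CACCC boxes and 3 CCAAT boxes, and none of the GATA forms. The Hba-a1 and Hba-a2 windows were identical over 247 of 247 aligned bases. These matches describe letters in the windows and no binding was measured.

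The copies also resemble each other in their transcripts, which limits how their counts can be read. Of the 50-base windows of Hba-a1 transcripts (the read length), 67.5% also occurred in Hba-a2, and 86.9% of those of Hba-a2 occurred in Hba-a1. Hbb-bs shared 57.5% of its windows with Hbb-bt, and Hbb-bt 58.3% with Hbb-bs. Hba-x, Hbb-y, Hbb-bh1 and Alas2 shared 0 windows with another gene. The split of counts within each pair of copies is therefore uncertain, while their sum is not touched by it. CB6F1 mice also inherit a BALB/c beta-globin haplotype, whose adult genes are named Hbb-b1 and Hbb-b2. Those symbols were not analysed here, and no source used here says how reads from that haplotype were assigned.

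The embryonic alpha-like gene Hba-x lies at chromosome 11, 32276400 to 32278116 (GRCm38, plus strand). Its level was 2.32, 1.4, 0.923, 0.334 and 1.14 CPM in replicates 1 to 5 of control cells and 1.30, 3.71, 1.35, 0.504 and 3.04 CPM in those of knockout cells, all GFP-positive. The GFP-negative libraries held 25.6 CPM (control) and 38.3 CPM (knockout), so every GFP-positive library lay below both of them while the genotypes overlapped.

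Hba-a1 (chromosome 11, 32283511 to 32284465) encodes the adult alpha chain, and Hba-a2 (chromosome 11, 32296489 to 32297298) encodes it from a further copy. Hba-a1 stood at 1.46, 1.23, 1.17, 0.376 and 1.06 CPM in control and at 0.473, 3.05, 1.35, 0.653 and 1.88 CPM in knockout GFP-positive libraries, against 13.1 and 21.5 CPM in GFP-negative control and knockout cells. Hba-a2 stood at 5.60, 7.13, 2.89, 1.92 and 5.76 CPM in control and at 3.78, 16.9, 8.04, 1.28 and 10.3 CPM in knockout GFP-positive libraries, against 74.7 and 103 CPM in GFP-negative cells. Knockout replicate 2 was the highest GFP-positive library for both copies, and a replicate 4 was the lowest, that of control cells for Hba-a1 and that of knockout cells for Hba-a2.

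The beta-like cluster lies on the minus strand of chromosome 7. Hbb-y (103851749 to 103853216), the main embryonic beta-like gene at this stage, stood at 8.08, 8.70, 3.31, 2.13 and 6.35 CPM in control and at 4.25, 19.0, 9.67, 1.60 and 10.1 CPM in knockout GFP-positive libraries. The GFP-negative libraries held 92.7 CPM (control) and 137 CPM (knockout) of Hbb-y. Hbb-bh1 (103841637 to 103843164), the embryonic gene of the earliest primitive cells, stood at 0.166, 0.0425, 0.336, 0.0418 and 0.254 CPM in control and at 0.236, 0.247, 0.0816, 0.0593 and 0.308 CPM in knockout GFP-positive libraries, against 3.87 and 5.80 CPM in GFP-negative cells. Hbb-bh1 was the scarcest globin, with 1 to 9 counts in each GFP-positive library, and replicates 2 and 4 of control cells held 1 count each.

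The adult beta-like genes were low in GFP-positive cells. Hbb-bs (103826534 to 103828096) stood at 0.596, 0.977, 0.839, 0.125 and 1.74 CPM in control and at 0.394, 4.74, 0.734, 0.415 and 3.25 CPM in knockout libraries, against 12.9 and 13.1 CPM in GFP-negative cells. Hbb-bt (103812524 to 103813996) stood at 0.265, 0.510, 0.503, 0.209 and 0.381 CPM in control and at 0, 2.60, 0.245, 0 and 0.752 CPM in knockout libraries, against 9.16 and 11.6 CPM in GFP-negative cells. Knockout replicates 2 and 5 held most of both genes. Hbb-bt was listed at 0 in knockout replicates 1 and 4, where a floor of 3 counts equals 0.118 and 0.0890 CPM and where Hbb-bs, its near copy, held 10 and 14 counts.

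Alas2 (chromosome X, 150547375 to 150570638, plus strand) stood at 0.497, 0.0849, 0.336, 0.293 and 0.466 CPM in control and at 0.473, 0.495, 0.571, 0.148 and 0.445 CPM in knockout GFP-positive libraries. The GFP-negative libraries held 1.83 CPM (control) and 2.45 CPM (knockout). Knockout replicate 2, the highest library for 6 of the 7 globins, was not the highest for Alas2.

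**Figure D1:**
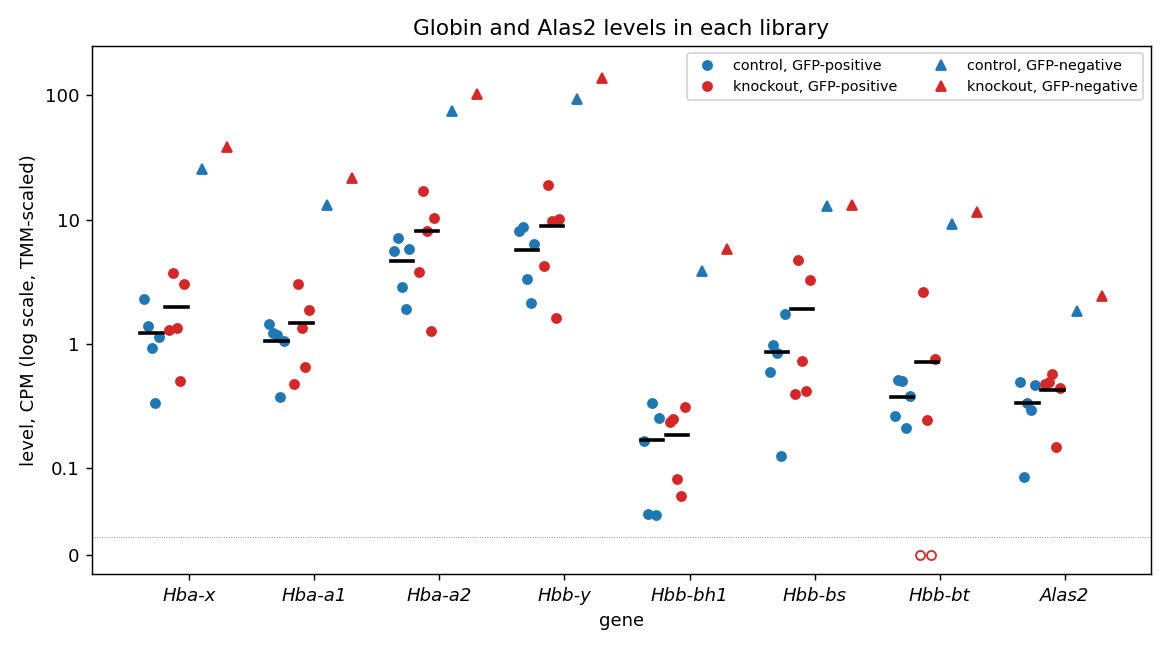
Level of each gene (x axis) in each of the 12 libraries, in CPM on a log scale, with libraries at 0 drawn as open circles below the dotted line. Circles are GFP-positive and triangles GFP-negative libraries, blue is control and red knockout, black bars are means of 5 libraries, and for all 8 genes both triangles lie above all 10 circles.

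On a scale per transcript length (TPM, transcripts scaled to a common total) the order of the genes was the same in both GFP-negative libraries. In the control library Hbb-y was highest at 316 TPM, followed by Hba-a2 at 297, Hba-x at 72.3, Hba-a1 at 59.4, Hbb-bs at 49.3, Hbb-bt at 29.3, Hbb-bh1 at 14.2 and Alas2 at 3.33 TPM. In GFP-positive control cells Hbb-y (19.8 ± 10.2 TPM) and Hba-a2 (18.9 ± 8.84 TPM) again led (SD, n = 5), and their difference was far smaller than the spread between libraries. Hba-a1 (4.88 ± 1.92 TPM), Hba-x (3.65 ± 2.15 TPM) and Hbb-bs (3.09 ± 2.21 TPM) followed and did not differ beyond their spread, and Hbb-bt (1.19 ± 0.432 TPM), Alas2 (0.656 ± 0.359 TPM) and Hbb-bh1 (0.621 ± 0.473 TPM) came last (SD, n = 5 each). In GFP-positive knockout cells Hba-a2 (32.5 ± 24.3 TPM) and Hbb-y (30.9 ± 22.9 TPM) led as well (SD, n = 5).

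Summed over the 7 globins, the level gave the amount of globin RNA in each library, whatever its source. Control GFP-positive replicates 1 to 5 held 18.5, 20, 9.98, 5.14 and 16.7 CPM, and knockout replicates 1 to 5 held 10.4, 50.3, 21.5, 4.51 and 29.6 CPM. The GFP-negative libraries held 232 CPM (control) and 330 CPM (knockout). Knockout replicate 2 was the highest GFP-positive library and knockout replicate 4 the lowest, 11.1-fold apart, while control libraries spanned 3.89-fold. As a share of all counts, globins took 0.000450% (95% Wilson interval 0.000384 to 0.000527%) in knockout replicate 4 and 0.00497% (0.00469 to 0.00525%) in knockout replicate 2. They took 0.0238% (0.0233 to 0.0244%) and 0.0341% (0.0335 to 0.0349%) in GFP-negative control and knockout cells. Such intervals cover counting error only. Relative to the GFP-negative library of the same genotype, the globin sum was 2.22 to 8.62% in control and 1.36 to 15.2% in knockout GFP-positive libraries. In these bulk libraries fewer red cells, less RNA per red cell and globin RNA from other sources cannot be told apart.

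Most globins, though not Hbb-bh1, rose and fell together across the 10 GFP-positive libraries. On a log2 scale the Pearson correlation with the sum of the other globins was 0.98 for Hba-a2, 0.97 for Hbb-y, 0.92 for Hba-x, 0.88 for Hba-a1, 0.83 for Hbb-bs, 0.77 for Hbb-bt and 0.426 for Hbb-bh1, and it was 0.425 for Alas2 (n = 10 libraries, Spearman's rho 0.94, 0.99, 0.93, 0.88, 0.76, 0.74, 0.285 and 0.503). Values of 1 library share its depth and scaling, and copies share reads. Without knockout replicates 2 and 4, the libraries farthest from the median, r was 0.97 for Hba-a2 and 0.94 for Hbb-y, but 0.45 for Hbb-bt, 0.20 for Hbb-bh1 and 0.11 for Alas2. For the last 3, which held few counts, the relation rests on those libraries.

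Embryonic and definitive globin transcripts were about equally abundant. Hba-x, Hbb-y and Hbb-bh1 together took 49.8 ± 4.57% of globin counts in GFP-positive control and 49.3 ± 4.27% in GFP-positive knockout cells (SD, n = 5 per genotype), with 45.8 to 57.2% and 45.5 to 55.5% by library, so the genotypes overlapped. The GFP-negative libraries held 52.7% (Wilson interval 51.5 to 53.8%) in control and 54.8% (53.8 to 55.8%) in knockout cells, within the range of the GFP-positive libraries. Among these, knockout replicates 2 (45.7%, Wilson interval 42.9 to 48.5%) and 5 (45.5%, 42.2 to 48.8%), which held the most globin counts, and control replicate 5 (46.4%, 41.6 to 51.4%) had intervals below those of both GFP-negative libraries. From TPM the mean embryonic share was 45.4 ± 4.34% in GFP-positive control and 44.7 ± 4.12% in GFP-positive knockout cells (SD, n = 5 per genotype).

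The equal split hid a contrast between the clusters. Among alpha-like transcripts the embryonic gene was the minor one: Hba-x took 16.9 ± 4.86% of alpha-like counts in GFP-positive control and 18.5 ± 4.32% in GFP-positive knockout cells (SD, n = 5 per genotype), and 22.6% and 23.5% in GFP-negative control and knockout cells. Among beta-like transcripts the embryonic genes were the major ones: Hbb-y and Hbb-bh1 took 82.3 ± 7.50% in GFP-positive control and 81.5 ± 9.58% in GFP-positive knockout cells (SD, n = 5 per genotype), and 81.4% and 85.2% in the GFP-negative libraries. Only Hbb-bs and Hbb-bt were counted as adult beta-like genes, so transcripts of the BALB/c haplotype may be missed. Within the embryonic beta-like pair nearly all counts belonged to Hbb-y. Hbb-bh1 took 4.00% (Wilson interval 3.34 to 4.79%) of the pair in control and 4.07% (3.49 to 4.73%) in knockout GFP-negative cells, and 0.485 to 9.20% in GFP-positive libraries.

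The embryonic share of beta-like counts separated some GFP-positive libraries beyond counting error. It was 90.5% (Wilson interval 86.5 to 93.5%), 91.9% (85.8 to 95.6%) and 90.9% (86.8 to 93.8%) in control replicate 1 and knockout replicates 1 and 3. It was 73.1% (64.5 to 80.3%), 72.4% (68.8 to 75.7%) and 72.3% (67.8 to 76.3%) in control replicate 3 and knockout replicates 2 and 5. Both sets hold libraries of both genotypes. How BALB/c adult beta-globin reads were assigned is not known, and whether this moved the share between libraries was not tested. The chain types stayed in balance in contrast: alpha-like genes took 47.1 to 53.9% of globin counts in GFP-positive libraries and 48.9% and 49.3% in the GFP-negative libraries.

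**Figure D2:**
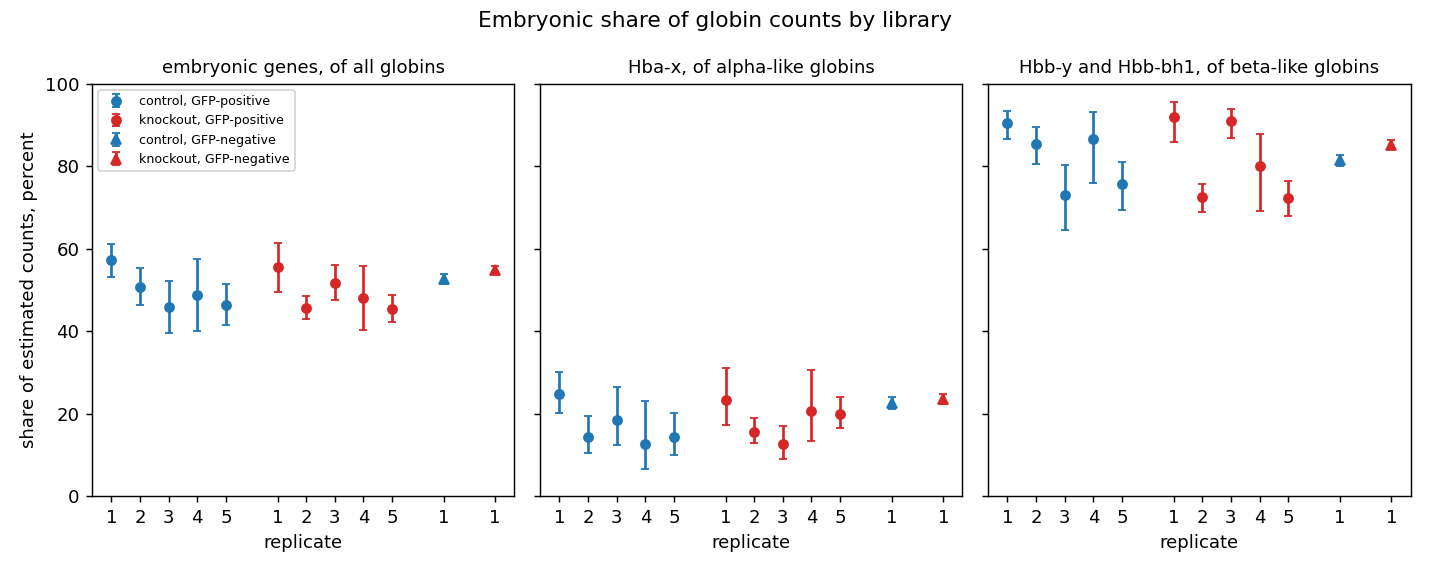
Share of embryonic genes among all globin counts, of Hba-x among alpha-like and of Hbb-y with Hbb-bh1 among beta-like counts (y axis, percent) for each library, ordered by group and replicate (x axis). Bars are 95% Wilson intervals for counting error; the embryonic share lies between 45.5 and 57.2% in all libraries, with Hba-x at most 24.7% and the beta-like pair between 72.3 and 91.9%.

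The comparison of GFP-positive with GFP-negative cells asked how far these transcripts differed between the sorted fractions. With 1 GFP-negative library per genotype, the spread behind its p-values and intervals came mostly from the GFP-positive libraries. The GFP-negative libraries are taken to vary like them. All 8 genes were lower in GFP-positive cells at an adjusted p under 0.05 in edgeR's quasi-likelihood test, where 32.6% of all 19032 genes tested were called in that direction and 63.7% in either. All 8 also had all 10 GFP-positive libraries below both GFP-negative ones, as did 32.4% of genes tested. The sizes of the differences stood farther out: 7 of the 8, all except Alas2, had a log2 fold change below -3, which 2.67% of genes reached. The median log2 fold change of the 8 genes was -3.92, against 0.015 over all genes tested. Hbb-bt and Hbb-bh1 missed the filter on low counts over the GFP-positive libraries alone. They passed it here with the GFP-negative libraries, where they were high, so their place in these counts is no independent support.

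Among embryonic globins, Hbb-bh1 was lower by 26.5-fold (log2 fold change -4.73 with a standard error of 0.383, 95% confidence interval -5.56 to -3.90, edgeR adjusted p = 1.59e-07). Hbb-bh1 held at most 9 counts in a GFP-positive library, and it passed the filter through the GFP-negative ones. Hba-x was lower by 19.9-fold (-4.32, -5.38 to -3.25, adjusted p = 1.32e-05 in edgeR) and Hbb-y by 15.8-fold (-3.98, -5.22 to -2.74, adjusted p = 0.000115 in edgeR). The definitive copies Hba-a1 and Hba-a2 had log2 fold changes of -3.74 and -3.85, and -3.83 when summed as 1 gene (interval -5.02 to -2.64, edgeR adjusted p = 0.000113). Hbb-bs and Hbb-bt had log2 fold changes of -3.40 and -4.33, and -3.74 when summed (interval -5.44 to -2.03, edgeR adjusted p = 0.00147). Alas2 had the smallest difference, 5.57-fold (-2.48, -3.26 to -1.70, edgeR adjusted p = 3.93e-05). The intervals of the 7 globins overlapped each other. Against the single GFP-negative library of knockout embryos alone, Hbb-bs (adjusted p = 0.132) and Hbb-bt (0.102) did not pass edgeR's threshold.

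The genotypes were compared within GFP-positive cells to ask whether loss of Arhgap35 went with more or less of this RNA. Of the 8 genes, 6 passed the filter on low counts, and edgeR called 0 of them, where 0.0343% of 17487 genes were called. At an unadjusted p under 0.05, 0 of the 6 passed, against 2.14% of all genes, and DESeq2 and limma on log2 TPM called 0 as well (0 at an unadjusted p under 0.05 by either). The fitted means were higher in knockout cells for all 6, with a median log2 fold change of 0.65 against -0.0016 over all genes tested. Control and knockout libraries overlapped for all 8, whereas 0.538% of all genes tested had no overlap.

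Hbb-bs had the largest estimate, a 2.23-fold higher mean in knockout cells (edgeR log2 fold change 1.15 with a standard error of 0.822, 95% confidence interval -0.69 to 3.00, edgeR adjusted p = 0.9999). Hba-a2 stood at 0.78 (-0.65 to 2.22), Hba-x at 0.67 (-0.59 to 1.93), Hbb-y at 0.63 (-0.81 to 2.07), Hba-a1 at 0.46 (-0.62 to 1.55) and Alas2 at 0.30 (-0.63 to 1.22), each with an edgeR adjusted p of 0.9999. These intervals reach from 0.635-fold to 4.65-fold for Hba-a2, so an increase of a few fold was not detectable in 5 against 5 libraries with this spread. The fit behind them did not pair libraries by replicate number. Hbb-bt and Hbb-bh1 missed the filter, and without it had log2 fold changes of 0.91 (-1.67 to 3.50) and 0.13 (-1.14 to 1.41), with edgeR adjusted p of 0.9992.

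The higher means rested on few libraries, and without knockout replicate 2 the median over the 6 genes was 0.28. The knockout library held more globin RNA than the control library of the same replicate number in 3 of 5 numbers. On a log2 scale the mean globin sum was 0.45 higher in knockout cells, but 0.063 higher without knockout replicate 2, 0.25 without knockout replicate 5, 0.13 without control replicate 4 and 0.93 without knockout replicate 4. Without knockout replicate 2 the log2 fold change fell to 0.031 for Hba-a1, 0.16 for Hbb-y, 0.32 for Hba-a2 and 0.50 for Hbb-bs. The difference of the knockout effects (GFP-negative minus GFP-positive) ran from -1.13 for Hbb-bs to 0.46 for Hbb-bh1 on a log2 scale. It passed edgeR's threshold for 0 of the 8 genes (0 at an unadjusted p under 0.05), where 0.0253% of 19763 genes were called, and it takes each lone GFP-negative library to vary like the replicated groups.

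**Figure D3:**
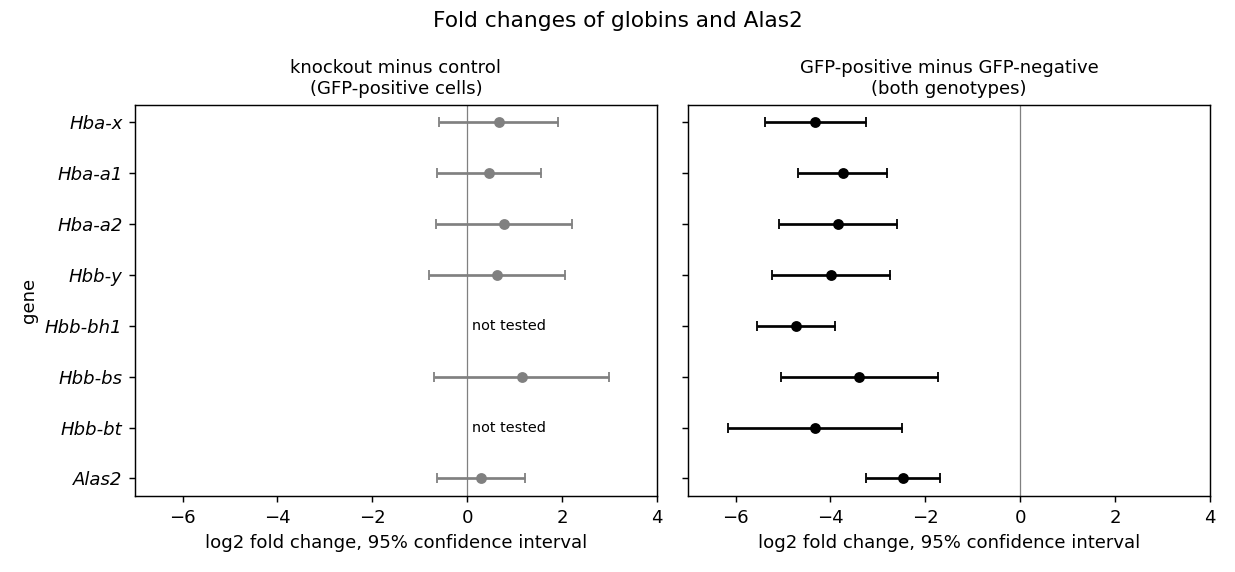
Log2 fold changes (x axis) of the 8 genes (y axis) with 95% confidence intervals from edgeR, for knockout against control GFP-positive cells on the left and GFP-positive against GFP-negative cells on the right. Black marks an adjusted p under 0.05 and grey a larger one: all 8 genes are black and below 0 on the right, and the 6 tested genes on the left have intervals that cross 0.

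Other members of the globin family did not follow the haemoglobin genes. Ngb, the neuronal globin, was higher in GFP-positive cells, at 1.23 ± 0.336 CPM (control) and 1.12 ± 0.113 CPM (knockout) (SD, n = 5 each) against 0.373 and 0.365 CPM in GFP-negative cells (edgeR log2 fold change 1.66 with a standard error of 0.277, adjusted p = 0.000134). Cygb, a globin of many tissues, stood at 13.2 ± 2.06 CPM (control) and 13.3 ± 1.67 CPM (knockout) in GFP-positive libraries (SD, n = 5 each) and at 12.51 and 12.2 CPM in GFP-negative cells, and was not called. Myoglobin (Mb) had means of 0.117 CPM (control) and 0.193 CPM (knockout) in GFP-positive cells, and Hbq1a, a theta-globin gene, means of 0.153 and 0.118 CPM, against 0.0339 and 0 CPM in the GFP-negative libraries. Hbq1b was listed at 0 in most libraries, reaching 0.296 CPM in 1 control library. These 3 were too low to be tested. The alpha-like pseudogene Hba-ps4 held 1 to 11 counts in each GFP-positive library and 4 and 2 in the GFP-negative ones, and Hbb-bh0 at most 2 in any library. Summed, Ngb, Cygb, Mb, Hbq1a and Hbq1b held 12.3 to 17.7 CPM in GFP-positive libraries and 13.0 and 12.7 CPM in GFP-negative ones.

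Gata1, the erythroid master factor, was near 0 in both fractions. It reached at most 0.0788 CPM (2 counts), in GFP-positive knockout replicate 1, and was listed at 0 in all 5 control GFP-positive libraries. The GFP-negative libraries held 1 count each, 0.0339 CPM (control) and 0.0365 CPM (knockout). Slc4a1, the red cell anion exchanger band 3, stood at 0.0593 to 0.547 CPM in GFP-positive and at 2.81 and 4.56 CPM in GFP-negative libraries. Klf1, a factor of the adult beta-globin promoter, reached at most 0.212 CPM in GFP-positive libraries and was listed at 0 in GFP-negative control and at 0.183 CPM in GFP-negative knockout cells.

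Of 18 red cell membrane and protein genes present, 12 were tested between the fractions, with 7 lower, 2 higher and 3 not called (median log2 fold change -1.03). Of all genes tested 32.6% were called lower and 63.7% in either direction. Over the GFP-positive libraries alone 8 genes of the list passed the filter on low counts. Gypc, glycophorin C, was lower, from 3.42 and 3.76 CPM in GFP-negative libraries to 0.0890 to 0.825 CPM (log2 fold change -3.33, edgeR adjusted p = 1.68e-06). Gypc passed the filter only with the GFP-negative libraries, where it was high, so its call is no independent support. Bpgm, the red cell enzyme of bisphosphoglycerate synthesis, was lower by less (-0.63). Ank1, the membrane ankyrin (1.44), and Tspan33, a tetraspanin (0.91), were higher in GFP-positive cells. Bpgm (46.7 to 56.2 CPM) and Ank1 (32.2 to 43.9 CPM) were high in GFP-positive libraries, so the summed list differed little, at 110 to 126 CPM against 122 and 127 CPM in GFP-negative cells. Between genotypes 0 of the 8 tested were called (median 0.025), and Tspan33, with the smallest p, had a log2 fold change of 0.097 (edgeR adjusted p = 0.9999).

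The ubiquitous part of haem synthesis did not move with Alas2. Of 8 enzymes 3 were higher and 2 lower in GFP-positive cells (median log2 fold change 0.079), with Cpox at 0.50, Uros at 0.31 and Fech at 0.27, and Ppox at -0.49 and Urod at -0.26. Of all genes tested 63.7% were called in either direction and 32.6% lower, so counts near these shares do not mark a list out. Of 10 iron supply genes 4 were higher and 4 lower, with the ferritin heavy chain Fth1 at 0.24, the mitochondrial transporters Abcb10 at 0.42 and Slc25a37 at 0.48, and the iron importer Slc11a2 at 0.21. Those lower included the transporter Slc25a38 (-0.32), the ferritin light chain Ftl1 (-0.16) and the iron sensor Ireb2 (-0.12). Fech, Urod and the last 3, with Slc25a37 and Slc11a2, were named after their values were seen. In both lists 0 genes were called between genotypes (0 at an unadjusted p under 0.05), with Ppox at -0.073 and Fth1 at 0.042. The list of erythroid transcription factors also holds Epor, the erythropoietin receptor, and of its 9 tested genes 7 were lower and 1 higher in GFP-positive cells (median -1.09), with Myb at -3.37, Bcl11a at -1.76 and Sox6 at -1.09, factors that other cell types use too, and with Nfe2, named after its value was seen, higher (1.40). Sox6, with the smallest p between genotypes, had a log2 fold change of 0.13 (edgeR adjusted p = 0.9999), and 0 of the 8 genes of the list tested there were called. Their sum was 146 to 193 CPM in GFP-positive and 473 and 456 CPM in GFP-negative libraries, most of it Bcl11a (331 and 311 CPM in GFP-negative libraries).

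Markers of other cells that blood or tissue could bring along were read in the same libraries. Of 9 tested myeloid and microglia genes all 9 were lower in GFP-positive cells (median log2 fold change -2.33), among them Cx3cr1, the fractalkine receptor (-1.79), Laptm5 (-2.68) and C1qb, a complement chain (-2.33). The summed list held 3.15 to 6.72 CPM in GFP-positive libraries and 19.9 and 18.8 CPM in GFP-negative ones. Over the GFP-positive libraries alone, 3 myeloid genes and 11 mesenchyme and pericyte genes passed the filter on low counts. Genes that passed it only with the GFP-negative libraries are no independent support for a lower level. Of all genes tested between the fractions 32.6% were called lower and 63.7% in either direction. Of 12 tested mesenchyme and pericyte genes 9 were lower and 1, the matrix protein gene Postn, was higher (3.55), with Fn1 (fibronectin) at -2.60, Pdgfra at -3.37 and Pdgfrb at -2.85, and their sum was 40.5 to 75.2 CPM against 163 and 165 CPM. Of 10 platelet genes only 3 passed the filter and were tested. Of these 0 were lower, and Gp1bb, a chain of the platelet glycoprotein Ib complex, was higher (1.30). Gp1bb alone had a mean of 27.2 CPM of the list's 31.8 CPM in control GFP-positive libraries, so the list says little about platelet RNA. Between genotypes 0 genes of these 3 lists were called, with Cd68 at -0.15, Col1a2 at 0.73 and Gp1bb at 0.062. Of 10 neural progenitor genes 9 were lower, with Vim at -1.33 and Olig2 at -3.50, and 1, Nkx6-1, was higher (2.22). Of 10 motor neuron genes 9 were higher and 1 was lower, with Slc18a3, the vesicular acetylcholine transporter, at 5.89, Mnx1 at 9.04 and Chat at 6.26. Between genotypes Vim stood at 0.079 and Chat at 0.077, with 0 genes called in either list. Postn was named after its value was seen. DESeq2 and limma on log2 TPM also called 0 genes between genotypes in each list described here.

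Endothelial genes, which mark vessel walls, were depleted far less than globins and had the highest correlation with them among the lists. Of 13 tested, 6 were lower, 0 higher and 7 not called in GFP-positive cells, where 32.6% of all genes tested were called lower. Log2 fold changes ran from -2.75 to 0.82 (median -1.12), and those called included Sox18 at -2.75, Esam at -1.14 and Emcn at -1.65. Over the GFP-positive libraries alone 10 genes of the list passed the filter on low counts. Genes that passed it only with the GFP-negative libraries are no independent support. The endothelial sum was 11.5, 11.6, 7.80, 5.73 and 10.7 CPM in control and 11.1, 23.2, 13.4, 6.82 and 14.1 CPM in knockout GFP-positive libraries, against 17.5 and 22.0 CPM in the GFP-negative libraries. That is 32.8 to 66.1% of the GFP-negative library in control and 31.0 to 105% in knockout cells, where the globin sum reached at most 15.2%. Knockout replicate 2 was the highest and control replicate 4 the lowest, with knockout replicate 4 next to it. Over the 10 GFP-positive libraries the log2 endothelial sum correlated with the log2 globin sum at r = 0.95 (rho 0.98, and r = 0.93 without knockout replicates 2 and 4). All points share library depth and scaling. For other lists r was 0.71 for mesenchyme, 0.59 for red cell proteins, 0.47 for progenitors, 0.089 for myeloid cells, 0.037 for motor neurons, -0.10 for platelets, -0.17 for iron supply, -0.38 for haem synthesis and -0.68 for erythroid factors with Epor. Between genotypes 0 of 10 tested endothelial genes were called by edgeR, and 1, the tight junction gene Cldn5, had an unadjusted p under 0.05 (log2 fold change 0.96, adjusted p = 0.9999 in edgeR). At that unadjusted level DESeq2 had 2. The list median was 0.60 beside 0.65 for the globins and Alas2, and without knockout replicate 2 it was 0.31 beside 0.28. The part of vessel tissue in the globin levels was not tested.

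**Figure D4:**
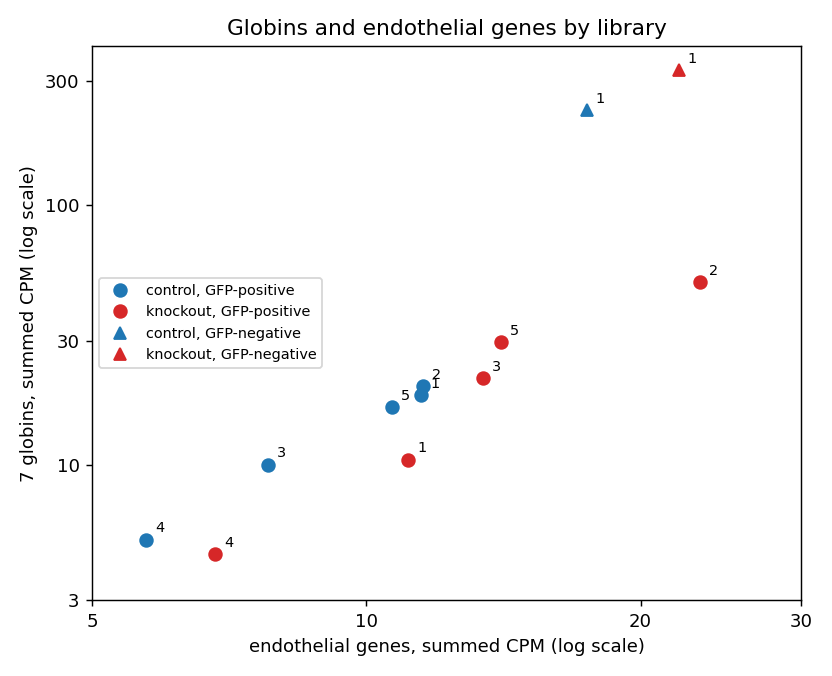
Summed level of the 7 globins (y axis) against that of 14 endothelial genes (x axis) in each library, in CPM on log scales, with replicate numbers beside the points. GFP-positive libraries (circles) run from 4.51 to 50.3 CPM of globins, with knockout replicate 2 at the upper right, and both GFP-negative libraries (triangles) lie at 232 and 330 CPM at a similar endothelial level.

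Among 15147 genes with a mean of at least 1 CPM, the 8 whose log2 level was most like the globin sum over the 10 GFP-positive libraries began with Kdr, the endothelial VEGF receptor (r = 0.95, rho 0.96, 0.418 to 6.97 CPM), and Plxnd1, a plexin of vessels and neurons (r = 0.92, rho 0.95, 3.34 to 6.56 CPM). Dph3 (r = 0.90), Ergic1 (0.90), Cntnap4 (0.90), AK180077 (0.89), Col4a1, a basement membrane collagen (0.89), and Nsg1 (0.88) followed. All share the depth and scaling of the same libraries, and Dph3, Ergic1 and Nsg1 moved little in level (33.6 to 37.2, 112 to 123 and 483 to 506 CPM). Kdr is also a member of the endothelial list summed above, so its correlation and that of the list are not independent. Kdr stood at 1.76 and 2.59 CPM in GFP-negative control and knockout cells, within its range in GFP-positive ones, and was not called between the fractions (log2 fold change -0.35, edgeR adjusted p = 0.702).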

How the data were processed

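RNA-seq libraries (polyA RNA, a kit that does not mark strand, 50-base single ends, per the labels' protocols) of 12 sorted samples were used. The deposited values are estimated counts per gene symbol, which the authors did not normalize, and TPM, which the authors scaled by transcript length and depth. Per the submitters' processing notes kallisto and mm10 were used; versions and the step from transcripts to symbols are not stated in the sources. Some items are not reported here. Columns were matched to samples by name, and 0 were left unmatched. The members and all gene lists were chosen with earlier results of these data known.

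Rounded counts passed edgeR's filterByExpr and TMM scaling and then its robust quasi-likelihood test (edgeR 4.0.16, limma 3.58.1, R 4.3.3). Benjamini-Hochberg adjustment covered every tested gene, with 0.05 as the threshold. Genotypes were compared over 10 GFP-positive libraries, and fractions over all 12 with genotype as a covariate. The main fits held no replicate block. The scripts were tested on simulated data. CPM use TMM-scaled totals. Shares have 95% Wilson intervals (scipy 1.17.1), and 0.1 CPM was added before log2 in correlations. Coordinates are from GENCODE M21 on GRCm38.

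Genes named are the 8 members, the other globins, up to 3 called genes (or the 1 with the smallest p) per list and comparison, and the 8 most like the globin sum. Gata1, Klf1 and Slc4a1, the pseudogenes and the test of Kdr between fractions were added after their values were seen. Epb42 was matched as Epb4.2, and Hbb-b1, Hbb-b2, Hbb-bh2, Hbb-bh3, Ahsp and Car1 were not analysed here.

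Libraries of the same replicate number deviated together (r = 0.381, 0.252, 0.179, 0.277 and 0.310 for replicates 1 to 5, at most 0.104 for other pairs), so the numbers were taken to pair the libraries; what they share is not stated. No 2 replicates were duplicates. Alternatives were other scaling, other filters, DESeq2 1.42.0, limma on log2 TPM (pseudocounts 1 and 0.1), the replicate block, summed copies, single genotypes and leaving out each replicate.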

Additional observations from a re-analysis of the deposited data

Results flagged for a closer look

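In 54 groups of library values, 3 had a library whose gap to its nearest neighbour was wide for the group's range; chance alone sets a library apart in about 1 of 20 groups. Hbb-bt in knockout replicate 2 (2.60 CPM) stood far above the next knockout library (0.752 CPM). The summed mesenchyme and pericyte genes were also highest in knockout replicate 2, at 75.2 CPM against 53.5 CPM in the next knockout library. In knockout replicate 4 Hba-a1 took 33.8% of the Hba-a1 and Hba-a2 counts (22 of 65), against 15.5% in the next knockout library; these copies share most of their 50-base windows. Libraries in the other groups were not set apart in this way.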

How the results depend on the processing

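Between GFP-positive and GFP-negative cells all 8 genes kept a lower level under every alternative run, and each kept its call except Hbb-bs and Hbb-bt with knockout libraries alone. Between genotypes 0 of the 8 genes were called under any alternative. The fit with the replicate block, run because the numbers pair the libraries, gave -4.02 for Hba-a1 and -6.10 for Hbb-bt between fractions and 0.89 for Hbb-bs between genotypes on the log2 scale, and changed no call of a member. Reversed estimates were those of Alas2 between genotypes without replicate 2 of both genotypes and with the block (-0.010, an alternative chosen after seeing the data) and of Hbb-bt with limma on log2(TPM + 0.1), with or without a filter (-0.75 each); the cause was not tested. Over all genes, 6 were called between genotypes, 5 with the replicate block, 11 with DESeq2, 0 with limma on log2(TPM + 1), 3 with limma on log2(TPM + 0.1) with or without a filter, 30 with no filter and the block (added after seeing the data), and 0 to 8 when 1 replicate was left out. Between fractions 8948 to 12272 genes were called, and 5 in the difference of knockout effects throughout. The embryonic share in knockout GFP-positive cells moved from 49.3 to 44.7% with TPM, which weighs genes by length. Leaving out 1 replicate moved the log2 globin difference between genotypes from 0.063 to 0.93 and that between fractions from -4.43 to -4.04. Depth limits Hbb-bh1, Hbb-bt and Alas2, with 0 to 63 counts per GFP-positive library.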
